A study of Homo sapiens with 18 samples.

Results

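ACP3 and ADAMTS1 are 2 genes of secreted enzymes among the 20145 genes counted in LNCaP cells, an androgen-responsive human prostate adenocarcinoma line. They were picked by gene symbol because both were lower than the DMSO vehicle with BD98 and above it with enzalutamide. Their values in those 2 contrasts therefore only describe them, and no test is given for them there. RNA was sequenced from 18 libraries, 3 per condition, after 72 h of treatment in serum-containing medium, prepared with a stranded mRNA kit. The treatments were ENZA, which is enzalutamide, and P-16 at 10 µM each, BD98 at 2 µM, 2-77 at 1 µM and ACBI at 0.2 µM, beside DMSO as the vehicle control. The series' title concerns inhibitors of the bromodomain of BRD7, a chromatin remodelling subunit. What each of the other 4 compounds acts on is not said in the labels. Doses differed between most of the compounds, so a contrast of 2 compounds at different doses is also a contrast of doses. Whether replicate libraries stem from independent cultures is not labelled. The p-values therefore rest on library-to-library spread alone, which may be technical. In such bulk RNA, fewer cells of a kind and less RNA per cell cannot be told apart.

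Androgens induce a set of genes in luminal prostate cells, of which KLK3, the gene of prostate-specific antigen, is the best known, and enzalutamide is an antiandrogen that blocks this induction. ACP3, long called ACPP, encodes prostatic acid phosphatase, a histidine phosphatase that luminal prostate cells secrete into semen. A membrane-bound form of the enzyme turns extracellular AMP into adenosine. ADAMTS1 encodes a secreted zinc metalloprotease with thrombospondin motifs that cleaves proteoglycans such as versican and aggrecan. Both genes are commonly counted among the genes that androgen regulates in prostate cells, but no condition here removed or added androgen, so that property was not tested.

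ACP3 lies on chromosome 3, on the plus strand, from 132317407 to 132368302 in hg38, the build the submitters name. ADAMTS1 lies on chromosome 21, on the minus strand, from 26835755 to 26845409. These are the ends of the whole genes, and counts were deposited per gene, so the secreted and membrane-bound forms of ACP3 were not told apart. A promoter sequence was at hand for ACP3 of the 2 genes. It is shown because ACP3 had the widest range of levels of the pair. The 210 bases upstream of the first transcript start that GENCODE 29 lists (RefSeq, GRCh38.p14, chr3:132317157-132317366, plus strand, 5′ to 3′), with the match to a searched motif in capitals, read as follows.
ACP3 upstream: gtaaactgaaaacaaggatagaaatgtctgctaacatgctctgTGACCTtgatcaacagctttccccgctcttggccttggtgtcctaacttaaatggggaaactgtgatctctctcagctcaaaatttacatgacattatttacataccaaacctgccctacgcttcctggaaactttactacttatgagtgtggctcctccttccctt

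Of 5 motifs searched on both strands, the nuclear receptor hexamer AGGTCA matched once, on the minus strand (printed as TGACCT), 207 bases before the RefSeq start. This hexamer was in the windows of the same length of 10.3% of 35116 RefSeq promoters. The steroid response element hexamer AGAACA was in 10.5% of those windows and not in that of ACP3. The forkhead motif TGTTTAC (2.5% of windows), the AP-1 motif TGANTCA (5.64%) and TATAAA (7.86%) had no match there either. All windows stopped short of the RefSeq starts, so the bases next to those starts were not searched for TATAAA or the other motifs. With 1 match, no motifs overlapped in the ACP3 window. The motifs were chosen after the sequence was at hand, and no binding data bear on the matches.

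The libraries held 16835113 to 36975052 counts. Ribosomal RNA transcripts made up 8.6% of the counts in ACBI replicate 3 and 0.64% to 2.09% in the other 17 libraries. No 2 replicates matched within sampling noise, since the chi-square per degree of freedom was at least 2.12 in every pair. Of the luminal markers, KRT8, KRT18, EPCAM, CDH1, HOXB13 and FOXA1 were at 89.6 CPM (counts in 1000000, here of library totals) or more in every library, and KRT19 was at 0.0382 to 5.67 CPM. Of the immune markers, PTPRC was at 0 to 0.0541 CPM, and of the stromal and endothelial markers, PECAM1 was at 0 to 0.141 CPM. Levels below are CPM scaled by TMM factors, given as mean ± SD over 3 libraries. Changes are log2 fold changes against DMSO with the standard error (SE), and a gene was called where edgeR's quasi-likelihood test gave a Benjamini-Hochberg adjusted p under 0.05 over 15422 genes.

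ACP3 varied widely, lowest with ACBI and highest with 2-77. In the 3 DMSO libraries it was at 128, 132 and 133 CPM. With ENZA it was at 182, 173 and 181 CPM, and with 2-77 at 182, 180 and 194 CPM. Every ENZA and 2-77 library was thus above every DMSO library, and the 2 treated groups overlapped each other. For ENZA this was part of the choice of ACP3, and the share of all genes separated like this was not counted.

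With P-16, ACP3 stood at 130.04, 123 and 128 CPM, overlapping DMSO. It was far lower with BD98, at 17.7, 20.1 and 19.3 CPM, and lowest with ACBI, at 4.78, 4.44 and 4.56 CPM. The 3 ACBI libraries held 123, 102 and 110 ACP3 counts, so the gene was still counted well above 0. The order of the means was therefore 2-77 (185 ± 7.65 CPM), ENZA (178 ± 5.04), DMSO (131 ± 2.55), P-16 (127 ± 3.64), BD98 (19.1 ± 1.22) and ACBI (4.59 ± 0.173), n = 3 each. Neighbours overlapped between 2-77 and ENZA and between DMSO and P-16, and at the other steps the libraries did not overlap.

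ADAMTS1 was at a higher level and in a narrower range. It was at 556, 575 and 576 CPM with DMSO and at 219, 229 and 226 CPM with BD98. With ACBI it was at 842, 840.1 and 818 CPM. BD98 thus marked its lowest level and ACBI its highest, with no overlap between these groups and DMSO. That ADAMTS1 lay below DMSO with BD98 was part of its choice.

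The other 3 compounds left ADAMTS1 slightly above DMSO. Its libraries were at 611, 609.9 and 589 CPM with 2-77, at 617, 615 and 629 CPM with P-16 and at 606, 616 and 616 CPM with ENZA. The means were ACBI 833 ± 13.6 CPM, P-16 620.5 ± 7.9, ENZA 612 ± 5.82, 2-77 603 ± 12.2, DMSO 569 ± 10.9 and BD98 225 ± 5.21, n = 3 each. P-16, ENZA and 2-77 overlapped as neighbours, and DMSO stood below all 9 of their libraries. For the ENZA libraries this was part of the choice of ADAMTS1, and all 9 were set against the same DMSO libraries. How many other genes separate from DMSO in this way was not counted.

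**Figure D1:**
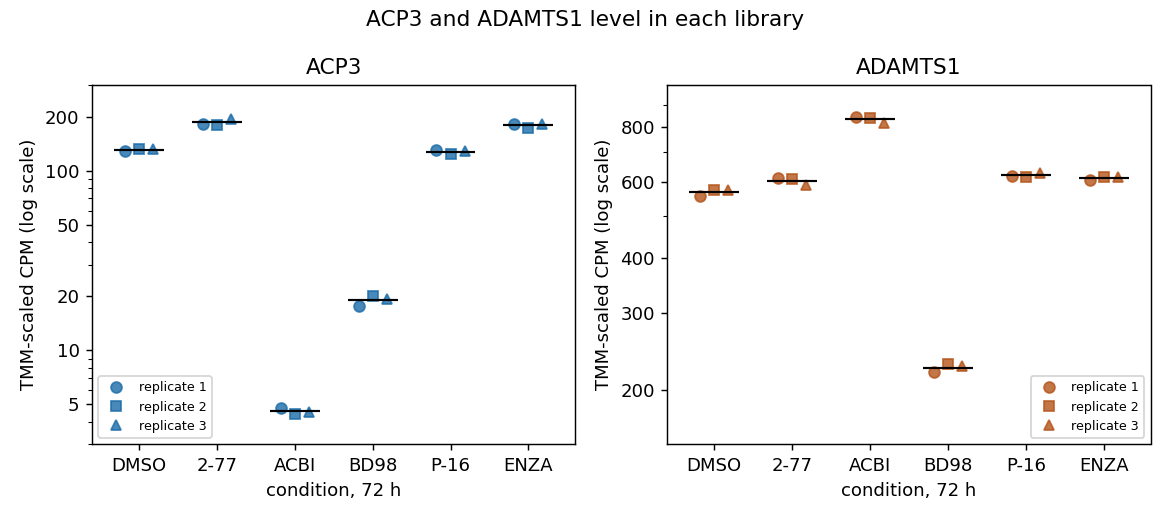
TMM-scaled CPM on a log axis of ACP3 (left) and ADAMTS1 (right) in each of the 18 libraries, by condition; symbols mark replicates 1 to 3 and bars the mean of 3. ACP3 was at 4.44 to 4.78 CPM with ACBI, where ADAMTS1 was at its highest, 818 to 842 CPM, and both were lower than DMSO with BD98.

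Set per length, ADAMTS1 was the more abundant transcript. In DMSO it stood at 109.6 ± 2.09 CPM per kilobase of its 5191-base transcript in GENCODE 29. ACP3 stood at 41.9 ± 0.815 CPM per kilobase with the transcript of 3125 bases and at 73.5 ± 1.43 with that of 1783 bases. The ratio of ADAMTS1 to ACP3 per length, with the 3125-base transcript, was 2.61 ± 0.00109 in DMSO, 1.96 ± 0.117 with 2-77 and 2.07 ± 0.0725 with ENZA. It was 2.94 ± 0.0777 with P-16, 7.12 ± 0.296 with BD98 and 109 ± 4.11 with ACBI. With the 1783-base transcript the ratio was lower, at 1.49 in DMSO, 1.18 with ENZA and 1.12 with 2-77. The lowest 2-77 library was then at 1.04. The ratio was 1.68 with P-16, 4.06 with BD98 and 62.4 with ACBI. Which ACP3 transcript the counts came from is not known. ACBI and BD98 therefore moved the balance between the transcripts by the most, and all 3 libraries of each lay outside the range of the other 4 groups.

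The values that chose the genes were as follows. With BD98, ACP3 was 6.89-fold lower than DMSO (log2 change -2.78 ± 0.050) and ADAMTS1 2.53-fold lower (-1.34 ± 0.033). ACP3 had the 62nd lowest log2 change of 15422 genes and ADAMTS1 the 402nd lowest. With ENZA, ACP3 was 1.36-fold higher (0.44 ± 0.042) and ADAMTS1 1.08-fold higher (0.11 ± 0.033). That the ENZA libraries lay above the DMSO libraries for both genes is what they were picked for. As the choice of the genes rests on these contrasts, nothing is read from the shares of all genes called in them, 49.0% with BD98 and 36.3% with ENZA.

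Of all genes tested, 345 (2.24%) were called lower with BD98 and higher with ENZA, the pattern that the 2 genes were picked for. Ranked by the smaller of the 2 changes, ACP3 came 87th and ADAMTS1 334th of them, so ADAMTS1 lay near the edge. The 8 that came first with at least 4 CPM in their highest group were SI, FAM131B, SLC22A10, SOX9, AOC1, CLU, NUCB2 and SYTL2. SI, the intestinal disaccharidase sucrase-isomaltase, was at 2.29 ± 0.247 CPM in DMSO, 0.534 ± 0.16 with BD98 and 10.1 ± 0.0844 with ENZA. SOX9, a transcription factor of the prostate epithelium, was at 7.8 ± 0.53, 2.61 ± 0.238 and 21.2 ± 1.38 CPM. Both had a larger log2 change with ENZA than ACP3 and ADAMTS1, from lower levels in DMSO.

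The contrasts of 2-77, ACBI and P-16 with DMSO were not part of the choice, although they share its 3 DMSO libraries. With 2-77, ACP3 rose 1.42-fold (0.50 ± 0.042, n = 3 per group, edgeR adjusted p = 5.73e-11). ADAMTS1 was 1.06-fold higher (0.08 ± 0.033, edgeR adjusted p = 0.0376). Both genes were thus called higher, in a contrast where 20.5% of all genes were called higher and 40.7% in either direction. Of the 345 genes called lower with BD98 and higher with ENZA, 253 were also called higher with 2-77, 1 lower and 91 not, again against shared DMSO libraries. The ADAMTS1 call ended with RLE factors (adjusted p = 0.0622), with library totals (0.0651), without DMSO replicate 1 (0.147), 2 (0.0563) or 3 (0.053) and without 2-77 replicate 1 (0.125) or 2 (0.111). The log2 change in these fits was between 0.069 and 0.099.

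With ACBI the genes moved in opposite directions. ACP3 fell 28.5-fold (-4.83 ± 0.062, n = 3 per group, edgeR adjusted p = 1.73e-31), the 175th lowest change of 15422 genes. ADAMTS1 rose 1.46-fold (0.55 ± 0.033, adjusted p = 2.72e-15). In this contrast 72.0% of all genes were called, 36.6% lower and 35.4% higher, so a call alone sets neither gene apart. All 3 ACBI libraries were on one side of all 3 DMSO libraries for both genes. The share of all genes separated in this way was not counted, so the separation does not set them apart either. Without ACBI replicate 3, the library with the largest share of ribosomal RNA, the log2 changes were -4.82 and 0.57.

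With P-16, ACP3 did not pass the test (-0.04 ± 0.043, n = 3 per group, edgeR adjusted p = 0.509), with a 95% interval from -0.14 to 0.05. ADAMTS1 rose 1.09-fold (0.12 ± 0.033, adjusted p = 0.00497), in a contrast where 12.4% of genes were called higher and 24.0% in either direction. The ADAMTS1 call ended with library totals (0.11, adjusted p = 0.0523).

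**Figure D2:**
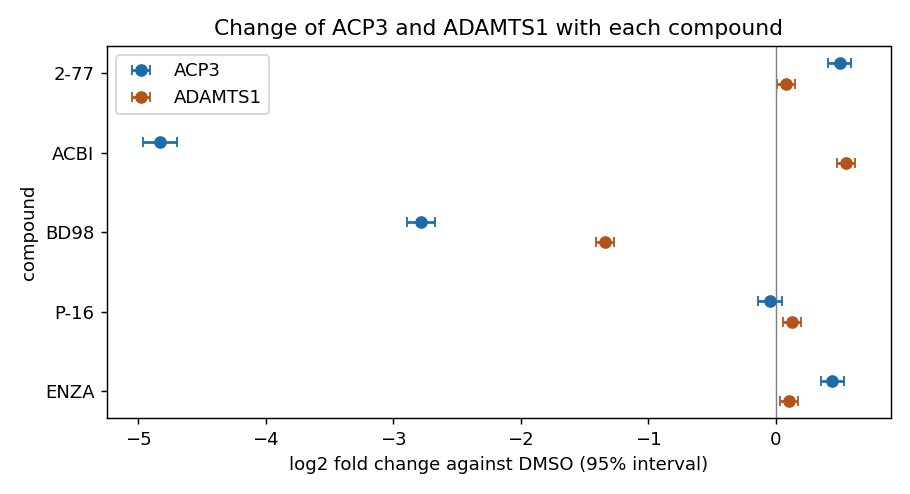
Log2 fold change against DMSO (points) with its 95% interval (bars) from the fit to 18 libraries, for ACP3 and ADAMTS1 with each compound. The points of the genes lie on opposite sides of 0 with ACBI (-4.83 and 0.55) and on the same side with BD98 (-2.78 and -1.34), 2-77 and ENZA.

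Contrasts among 2-77, ACBI and P-16 compare none of the libraries that chose the genes, at doses of 1, 0.2 and 10 µM. Their SE and p-values still rest on a spread estimated over all 18 libraries, including those that chose the genes. ACP3 was 1.46-fold higher with 2-77 than with P-16 (0.55 ± 0.042, n = 3 per group, edgeR adjusted p = 5.02e-11). In that contrast 10.6% of genes were called higher and 22.4% in either direction. ADAMTS1 did not pass between these compounds (-0.04 ± 0.032, adjusted p = 0.413, 95% interval -0.11 to 0.03). The 2 genes thus gave different readouts of 2-77 and P-16, with ACP3 passing and ADAMTS1 not, although the difference between the genes was not tested.

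ACP3 was 40.3-fold higher with 2-77 than with ACBI (5.33 ± 0.061, edgeR adjusted p = 1.32e-32), where 36.8% of genes were called higher and 70.2% in either direction. Against P-16, ACP3 was 27.6-fold lower with ACBI (-4.79 ± 0.062, adjusted p = 2.84e-31), where 71.5% of genes were called, 36.5% lower and 35.0% higher. ADAMTS1 was lower with 2-77 than with ACBI (-0.47 ± 0.033, adjusted p = 1.43e-13) and higher with ACBI than with P-16 (0.43 ± 0.033, adjusted p = 1.08e-12). ACBI thus stood apart from 2-77 and from P-16 in both genes, downward in ACP3 and upward in ADAMTS1.

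Most other genes of a list that androgen induces fell with ENZA. Of 45 listed genes without ACP3 and ADAMTS1, 44 were tested, and 38 of them fell with ENZA, 3 rose and 3 did not pass, against 18.1% of all genes called lower. Their median change was -1.07 and that of all genes 0.00. KLK3 fell from 4277 ± 46.6 to 961 ± 1.61 CPM with ENZA (-2.15 ± 0.033, edgeR adjusted p = 6.27e-29). The 3 that rose were LIFR, a cytokine receptor gene (0.40 ± 0.080), PTK2B, a tyrosine kinase gene (0.25 ± 0.043), and the keratin gene KRT8 (0.16 ± 0.040). The log2 change of ACP3 was above those of all 44 and that of ADAMTS1 above 41. Both genes were picked for lying above DMSO with ENZA and below it with BD98, so their places among the list in those contrasts only describe them.

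With 2-77, which the choice did not use, 38 of the 44 list genes fell, 4 rose and 2 did not pass, with a median of -1.11 (20.2% of all genes were called lower). ACP3 changed upward by more than 43 of them, and only NDRG1, a stress-responsive gene that androgen also induces, rose by more (0.85 ± 0.036). With P-16, 36 of 44 fell, 2 rose and 6 did not pass, with a median of -0.83 (11.6% of all genes called lower). The ADAMTS1 value there was above 42 of the 44 and that of ACP3 above 38. KLK3 fell to 737 ± 23.7 CPM with 2-77 and 2399 ± 15.3 CPM with P-16.

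With BD98, 34 of the 44 fell, 5 rose and 5 did not pass, at a median of -0.53 (24.5% of all genes called lower). ACP3 was below all 44 list genes there, and ADAMTS1 below 40, with HPGD, TRPM8, SLC45A3 and STEAP4 lower than ADAMTS1. KLK3 fell by 0.74 on the log2 scale with BD98, to 2557 ± 49.5 CPM. With ACBI the list went both ways, 25 higher, 15 lower and 4 not passing, at a median of 0.40 (35.4% of all genes called higher and 36.6% lower). ACP3 was below all 44 list genes there as well, the nearest being KLK2 (-4.17 ± 0.042), while ADAMTS1 was above 25 of them and below 19.

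**Figure D3:**
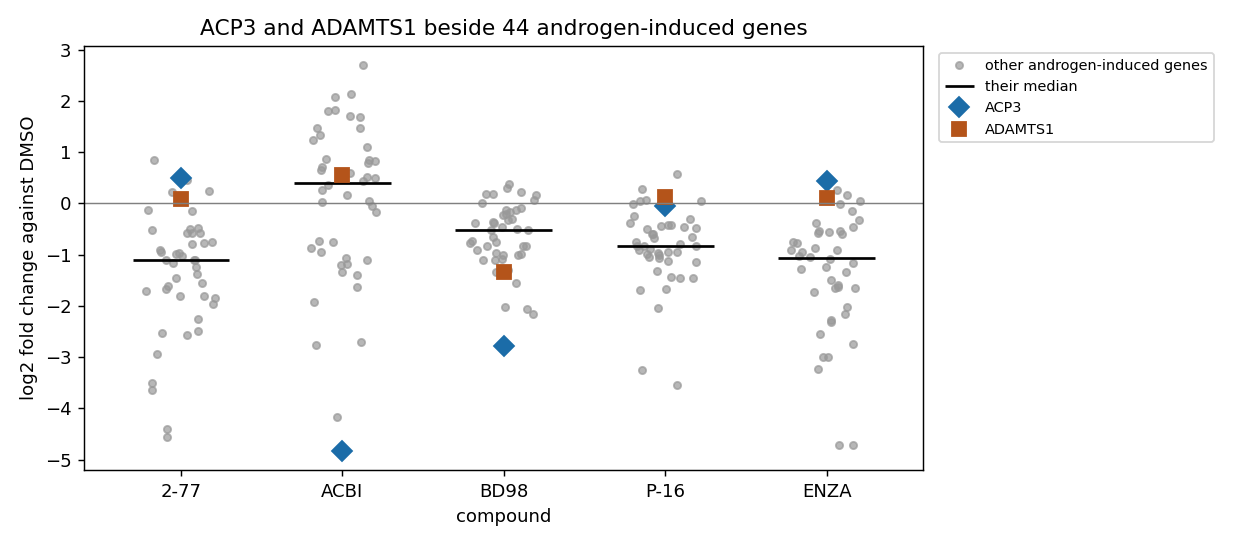
Log2 fold change against DMSO of 44 androgen-induced genes (grey points, bars mark their median) beside ACP3 (diamonds) and ADAMTS1 (squares), by compound. With ENZA the list had a median of -1.07 and ACP3 lay above all its genes, and with BD98 and ACBI ACP3 lay below all of them.

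LIFR and PTK2B were the 2 list genes that met the pattern of lower with BD98 and higher with ENZA. LIFR was at 32 ± 1.83 CPM in DMSO, 25 ± 2.43 with BD98 and 42.4 ± 1.38 with ENZA. PTK2B was at 109 ± 1.35, 87.2 ± 3.54 and 130 ± 2.32 CPM. With ACBI the pair split as well, LIFR rising (2.14 ± 0.077) and PTK2B falling (-0.88 ± 0.045), with a highest edgeR adjusted p of 8.91e-17.

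HOXB13, a prostate homeobox factor, met the same pattern, falling with BD98 (-0.25 ± 0.043) and rising with ENZA (0.13 ± 0.043, highest edgeR adjusted p of these = 0.0211). So did the coactivator gene NCOA2 (-0.21 ± 0.041 and 0.25 ± 0.040, highest edgeR adjusted p = 0.000109). GATA2, a transcription factor of luminal prostate cells, fell with ACBI from 255 ± 1.15 to 79.4 ± 6.87 CPM (-1.68 ± 0.046, edgeR adjusted p = 1.37e-23).

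Other phosphatases of the acid and histidine families had smaller log2 changes than ACP3 with ACBI and BD98. Of 7 listed, 6 were tested, and 3 rose, 1 fell and 2 did not pass with ACBI, where 72.0% of all genes were called. MINPP1, an inositol phosphatase in the same superfamily as ACP3, rose (0.75 ± 0.064), as did the lysosomal acid phosphatase gene ACP2 (0.44 ± 0.058) and PXYLP1 (0.41 ± 0.095), and ACP6 fell (-0.17 ± 0.059). With BD98, ACP1 and ACP6 fell (-0.19 ± 0.046 and -0.15 ± 0.059), 0 rose and 4 did not pass, where 49.0% of all genes were called. The median over the 6 was 0.41 with ACBI and, opposite in sign to the calls, 0.07 with BD98. With P-16, ACP6 fell (-0.33 ± 0.060, edgeR adjusted p = 0.000136) while ACP3 did not pass. With ENZA, PXYLP1 rose (0.39 ± 0.094, edgeR adjusted p = 0.00167).

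ACP3 shares the conversion of extracellular AMP to adenosine with NT5E, the ecto-5′-nucleotidase CD73. NT5E was scarce, at 0.254 CPM in DMSO and 1.12 CPM with ACBI, where it rose (2.05 ± 0.445). Of 17 listed genes of extracellular nucleotides and adenosine, 15 were tested, and 5 rose and 9 fell with ACBI (72.0% of all genes called) and 3 rose and 4 fell with BD98 (49.0% called). SLC29A1, a nucleoside transporter, fell with ACBI from 33 ± 0.58 to 9.06 ± 1.08 CPM (-1.86 ± 0.078). ENPP1, which makes AMP from ATP, fell there as well (-1.04 ± 0.079) and rose with BD98 (0.22 ± 0.073). ENZA changed 3 of the 15 (36.3% of all genes called), with ENTPD3 up and DPP4 and SLC29A2 down.

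Of 12 other prostate secretory genes, 9 were in the table and 5 tested. With BD98, 1 rose and 4 fell (49.0% of all genes called), and with ACBI 1 rose and 4 fell (72.0% called). The 1 that rose with BD98 was PLA2G2A (2.57 ± 0.098), at 5.92 CPM in DMSO, which fell with ACBI (-5.52 ± 0.26). MSMB, at 0.653 CPM in DMSO, fell with both BD98 (-1.44 ± 0.57) and ACBI (-2.70 ± 0.68). SPON2, which encodes a secreted matrix protein, was at 2015 ± 51.6 CPM in DMSO, 801 ± 21.9 with BD98 and 3459 ± 192 with ACBI. It thus fell with BD98 (-1.33 ± 0.040) and rose with ACBI (0.78 ± 0.040) as ADAMTS1 did, but fell with ENZA (-0.19 ± 0.040). CLU, the gene of the secreted chaperone clusterin, had the directions of ACP3 with these compounds, at 9.63 ± 0.68 CPM in DMSO, 24.2 ± 1.43 with ENZA, 4.1 ± 0.217 with BD98 and 1.79 ± 0.384 with ACBI. AZGP1, a secreted glycoprotein gene, fell with all 5 compounds, most with ACBI (-2.89 ± 0.085).

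ADAMTS1 was by far the most counted gene of its family. Of 24 relatives listed, 21 were in the table and 8 had enough counts to be tested. The next in level, ADAMTS13, the protease of von Willebrand factor, was at 15.6 ± 0.941 CPM in DMSO. It rose with BD98 (0.47 ± 0.074), where ADAMTS1 was lower, and with ACBI (0.54 ± 0.074). With BD98, 3 of the 8 rose and 2 fell, where 49.0% of all genes were called. The 2 that fell were ADAMTS17 (-0.51 ± 0.13) and ADAMTS20 (-0.72 ± 0.285). With ENZA, 3 rose, 0 fell and 5 did not pass, where 36.3% of all genes were called.

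The proteoglycans that ADAMTS1 is known for were barely counted, with 8 counts of VCAN and 16 of ACAN over all 18 libraries. Of 18 listed substrates, activators and inhibitors, 17 were in the table and 10 were tested. SDC4, a cell-surface proteoglycan whose ectodomain ADAMTS1 can shed, was at 57.2 ± 0.798 CPM in DMSO and 130.5 ± 2.88 with ENZA (1.19 ± 0.045). FURIN, the protease that processes the ADAMTS1 precursor, fell with BD98 (-0.39 ± 0.045) and rose with ACBI (0.58 ± 0.044), in the directions of ADAMTS1. It fell with 2-77 and ENZA (-0.27 ± 0.045 each), where ADAMTS1 was above DMSO. HBEGF, the gene of a membrane-bound growth factor, was the 1 gene of this list called lower with BD98 (-0.86 ± 0.14) and higher with ENZA (0.84 ± 0.12), and it rose with ACBI (0.35 ± 0.12, highest edgeR adjusted p of the 3 = 0.014). TIMP2, an inhibitor of metalloproteases, rose with 2-77, BD98, P-16 and ENZA (0.62 to 0.95) and did not pass with ACBI (-0.08 ± 0.042). TIMP3, the inhibitor best known for ADAMTS proteases, had 126 counts in all and was not tested.

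The genes most like each of the pair were found by Pearson's r of log2 CPM over the 18 libraries, which share the 6 conditions, so r mostly follows the group means. For ACP3 these were CDH26, VASN, RPL12, RPS3, ZNF703, MARS2, LYN and RLN1, with r from 0.981 to 0.987. CDH26, a cadherin gene, was at 50.2 ± 0.566 CPM in DMSO, 59.1 ± 2.68 with ENZA, 16.2 ± 0.848 with BD98 and 4.58 ± 0.337 with ACBI. For ADAMTS1 they were GAREM1, TLE1, SLC22A23, CADM1, MIOS, FOXA1, ATP8A1 and TPD52L1, with r from 0.964 to 0.988. No gene was among the 8 of both.

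Without the 3 ACBI libraries, none of the 8 genes most like ACP3 remained, and TLE1, APP, PTPN13, FOXA1, PPP1R14C, SLC22A23, QSOX1 and ATXN1 took their place (r from 0.988 to 0.997 over 15 libraries). TLE1, APP, SLC22A23 and ATXN1 were then also among the 8 most like ADAMTS1. Across the 15 libraries ACP3 and ADAMTS1 had r = 0.983, while Spearman's rho was 0.443. Both genes were picked for lying below DMSO with BD98, so a high r over a set with those libraries follows partly from the choice. The correlation without the BD98 libraries was not tested. Across all 18, r was 0.0891. By Spearman's rho over 18 libraries, 0 of the 8 genes remained for either gene.

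TLE1, a transcriptional corepressor gene, was at 46.4 ± 1.85 CPM in DMSO, 9.22 ± 0.241 with BD98, 57.1 ± 0.712 with ENZA and 98.8 ± 4.21 with ACBI. FOXA1, a pioneer transcription factor of prostate epithelium, was at 679 ± 14.1, 508 ± 13.9, 697 ± 7.1 and 839 ± 17.1 CPM. FOXA1 fell with BD98 (-0.42 ± 0.032) and rose with ACBI (0.31 ± 0.032), as ADAMTS1 did, and it did not pass with ENZA (0.04 ± 0.032, edgeR adjusted p = 0.38).

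**Figure D4:**
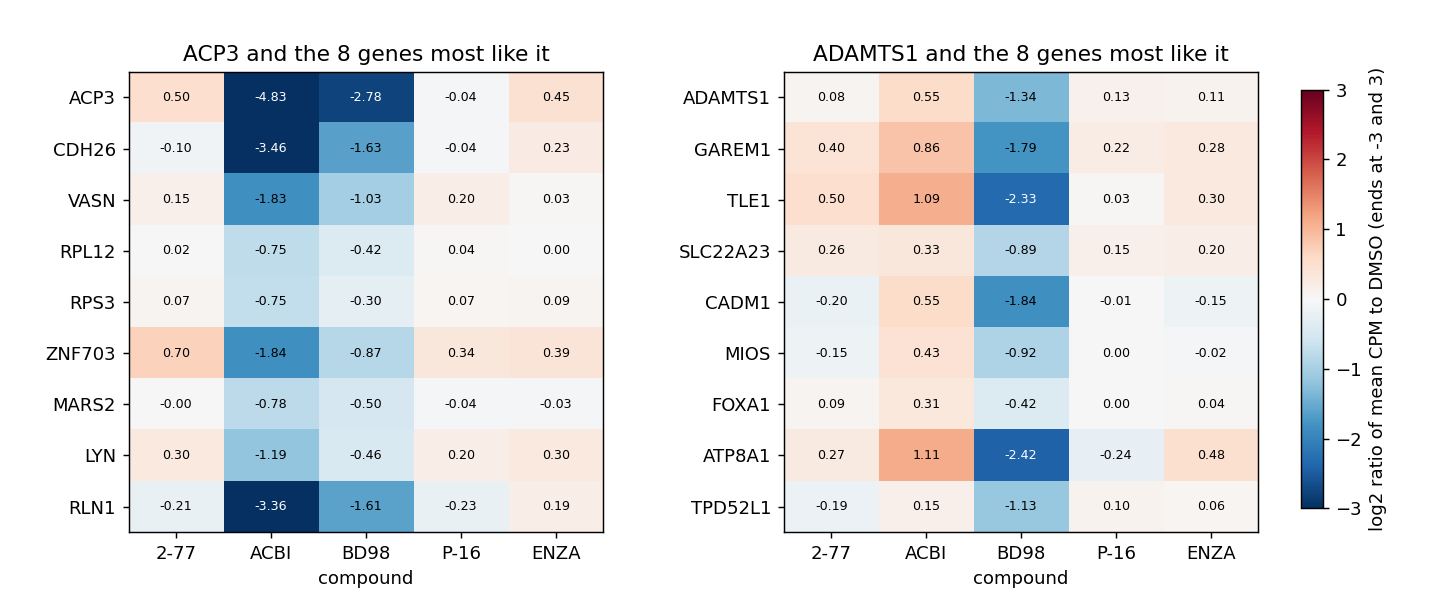
Log2 ratio of mean CPM to DMSO for ACP3 (left) and ADAMTS1 (right) with the 8 genes most like each by Pearson's r over 18 libraries, by compound; colours end at -3 and 3. All 8 genes beside ACP3 were lower with ACBI and with BD98, while those beside ADAMTS1 were lower with BD98 and higher with ACBI.

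Neighbouring genes did not share these patterns in full. Of the genes counted, MRPL3, SNORA58 and CPNE4 lay beside ACP3 at lower coordinates and DNAJC13 and ACAD11 at higher ones. DNAJC13, which starts 49.2 kb past the end of ACP3, rose with BD98 (0.22 ± 0.042) and with ACBI (0.20 ± 0.042), where ACP3 was lower, and with 2-77 (0.17 ± 0.042) and ENZA (0.32 ± 0.042), where ACP3 was higher. CPNE4 and SNORA58 had 33 and 7 counts in all. MRPL3, a mitochondrial ribosomal protein gene, fell with both (-0.31 ± 0.043 and -0.73 ± 0.044), and ACAD11 rose with ACBI (0.72 ± 0.074), 2-77 (0.27 ± 0.075) and ENZA (0.36 ± 0.075) and did not pass with BD98 (-0.17 ± 0.078).

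Of the genes counted, ATP5PF, GABPA and APP lay beside ADAMTS1 at lower and ADAMTS5, LINC01697 and LINC01695 at higher coordinates. Genes that were not counted may lie between them. APP, the amyloid precursor gene 665 kb away, was at 509 ± 4.02 CPM in DMSO and 288 ± 9.76 with BD98 (-0.82 ± 0.035, edgeR adjusted p = 5.36e-18). It did not pass with ACBI (-0.00 ± 0.034) or ENZA (0.04 ± 0.034). ADAMTS5, a relative of ADAMTS1 that lies 72.5 kb from it, had 36 counts over all libraries. LINC01697, a long noncoding RNA gene 1203 kb away, was scarce, at 2.92 CPM in DMSO and 0.139 CPM with ACBI. It fell with BD98 (-1.05 ± 0.23, edgeR adjusted p = 0.000356), where ADAMTS1 was lower, and with ACBI (-4.35 ± 0.34, adjusted p = 1.65e-12) and 2-77 (-1.46 ± 0.23, adjusted p = 8.54e-06), where ADAMTS1 was higher. ATP5PF and GABPA passed with none of the 5 compounds.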

How the data were processed

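The members and gene lists were chosen with earlier results of these data known. Per the submitters' processing notes, STAR, Partek and DESeq2 were used with hg38, without versions or roles, and the counting program, annotation and filters are not given in the sources used here. The authors deposited expected counts: fractional, estimated count values for each gene without depth scaling. Columns named SCO277 were taken as 2-77 and PB_16 as P-16.

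After rounding, the tests were run in R 4.3.3 with edgeR 4.0.16 (limma 3.58.1): filterByExpr by 6 groups left 15422 of 20145 genes, TMM factors, a robust quasi-likelihood fit (18 libraries, 12 residual degrees of freedom), a two-sided F test, and Benjamini-Hochberg adjustment. The SE is the log2 change divided by the square root of F. Log2 CPM used a prior count of 2. Data for 2-77 against DMSO were simulated with 14748 genes, 50 of them changed at each fold. Folds of 1.25, 1.5, 2 and 4 were recovered in 64%, 92%, 100% and 100% of these. Of 187 calls, 9 were of unchanged genes. In the real contrast 6280 genes were called, so the simulated rates need not hold for it. Depth was 16835113 to 36975052 counts, and reads carry no molecular identifiers, so spreads cover these libraries only.

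Named genes were the pair, up to 4 genes of smallest p per list and contrast (any gene of lists with 12 or fewer measured), the 8 most like each gene and the 8 leading genes of the same pattern with at least 4 CPM, and up to 3 neighbours per side; some items are not reported here. Outside this rule, KRT8, HPGD, TRPM8, STEAP4, LIFR, PTK2B, NDRG1, HOXB13, NT5E, ADAMTS20, VCAN, ACAN, TIMP3 and the cell type markers, and KLK3, NCOA2, ENPP1, TIMP2, FURIN and HBEGF in some contrasts, were chosen after their values were seen. Alternatives were DESeq2 1.42.0, RLE factors, library totals, no filter or a stricter one, only the groups compared, a replicate block, no ribosomal RNA genes and leaving out each library. Figures used matplotlib 3.10.9 in Python 3.11.15.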

Additional observations from a re-analysis of the deposited data

How the results depend on the processing

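Of 416 values of ACP3 and ADAMTS1 under alternatives, 416 kept their direction, and of 312 tests 304 kept their side of the threshold. The exceptions were all of ADAMTS1. With 2-77 its change of 0.08 lost its call with RLE factors (0.076) and library totals (0.099), and leaving out each library in turn gave 0.069 to 0.104. With P-16 it lost its call with library totals (0.11). The ADAMTS1 difference with BD98 was -1.28 with library totals against -1.34, a shift of more than the spread between replicates. In that contrast ACP3 was at -2.72 with library totals against -2.78, and the median of all genes at 0.062 against -0.002. The cause of these shifts was not tested. Counts of changed androgen-induced genes stayed within 1.5 times under all alternatives run. With library totals the median log2 change of all genes lay between -0.0485 and 0.0808 over the contrasts, against -0.0078 to 0.0255 in the main fit. Differences of ADAMTS1 as small as those with 2-77, P-16 and ENZA are near what 3 libraries per group resolve.

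The replicate numbers do not pair the libraries: 1 of 45 same-number pairs from different groups had residuals correlated above 0.1 (median -0.00109), and 4 of 18 libraries correlated best with their own number. With a replicate block, ACP3 changed by 0.50 with 2-77 and -4.83 with ACBI, ADAMTS1 by 0.08 (adjusted p = 0.0481) and 0.55, no call of either gene changed, and 6107 genes were called with 2-77 against 6280.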
